A study of Komagataella phaffii with 26 samples.

Results

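The genes described here are 24 of the 5040 measured in the methylotrophic yeast *Komagataella phaffii*, and make up 3.11% of those that the study lists as changed by alkalinization. They were chosen by their annotation: every listed gene whose description holds the word transcription, protein kinase or cyclin was taken, 27 in all, and 3 (GLN3, GAT1 and PHO80) were left out by name. By their descriptions 9 are transcription regulators, 8 are protein kinases and 4 are cyclins. The remaining 3 came in by wording alone: RRF1 is a mitochondrial ribosome recycling factor, MET5 a sulfite reductase subunit, and the gene named GLK1 a protein of unknown function that its description ties to transcriptional induction. The name HRK1 is carried by 2 of the kinases, given here with their UniProt accessions, and 1 regulator has an accession (C4R279) but no name. Because the list was drawn up from genes already reported as changed, the changes from time zero below are a description of the chosen genes and carry no test. Only genes of that list carry descriptions in the deposited tables, so regulators just outside its threshold could not be looked up. All 24 passed the filter on low values.

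Wild-type X-33 cells were cultured in yeast extract and peptone at 28 °C, with glycerol or glucose at 20 g/L as carbon source. Aliquots of each culture were spun down and resuspended in fresh medium of the same kind with 50 mM TAPS buffer. One aliquot was at pH 5.5 and was sampled at once (time zero), and the other was at alkaline pH and was sampled at 15, 30 and 60 min. There were 3 courses (glycerol to pH 8.0, glycerol to pH 8.2 and glucose to pH 8.0), 12 groups and 26 libraries, with 2 libraries a group except glycerol at pH 8.0 for 15 min, which had 4. Glucose was not combined with pH 8.2. No aliquot left at pH 5.5 was followed over time, so alkaline pH, handling, new medium and elapsed time cannot be told apart in a change from time zero. The study calls the replicates biological, and each stressed aliquot gave samples at several times.

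Transcription factors set which genes are read, protein kinases pass signals on by phosphorylating other proteins, and cyclins switch on cyclin-dependent kinases and give them their targets. In fungi the zinc-finger factor Rim101 is the end point of a pathway that senses external pH at the plasma membrane and activates the factor by cutting it. Most other roles named below are known from *Saccharomyces cerevisiae*, where Hac1 drives the unfolded protein response, Msn4 the general stress response, and Cln3 the start of the cell cycle. The activity of many of these proteins is set after transcription, and the libraries measured mRNA alone.

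The values are RPKM (read counts divided by gene length and library size), and the read totals behind them were 16.3 to 20.4 M a library. Changes are differences of log2(RPKM + 1) between group means, with a standard error (SE) from a limma fit across 5034 genes. A gene was called changed from time zero at an adjusted p below 0.05, a p below 0.01 and a log2 change of at least 1 in size. Every member had at least 10 reads in every library, and the low counts were in IME2 (10 to 102 reads) and SMK1 (26 to 90), whose log2 changes are understated by the added 1. The 24 gene models lie on all 4 chromosomes and share no base with another gene model, which matters because the libraries did not keep the strand. Some neighbours are close, with gaps of 0 bp for RRF1, 25 bp for URE2-2, 39 bp for CLB3 and 44 bp for PCL5. Whether reads from a neighbour's transcript reach these genes was not tested. Replicates stood close in most groups, with a median ratio of 1.13 between the highest and the lowest library over 288 combinations of gene and group. The ratio was above 2 in 8 combinations. Of these, 3 were YAK1, and 7 were in the stressed groups at pH 8.2, where replicate 2 at 60 min was the high library for MSN4 and PCL5 and the low one for MET5.

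Of the 24 genes, 13 were called only higher, 9 only lower, 1 (PDK1) higher in 1 comparison and lower in another, and SFL1 in none of the 9. The 23 called genes stand beside 15.2% of all genes tested that were called at least once, a share the choice of the list fixes. Of the transcription regulators, 6 were called higher and 2 lower. All genes also had more calls higher than lower in each comparison but glucose at 15 min (2.6 against 2.82%). The count therefore carries no reading on the regulators. Kinases were mixed (4 higher, 3 lower and 1 both ways), and the cyclins split evenly (2 and 2). RIM101 was called higher in all 9 comparisons, and GLK1 lower in all 9. In glycerol cultures at pH 8.0, 5, 7 and 10 members were called higher at 15, 30 and 60 min (3.14, 3.73 and 4.31% of all genes), and 4, 1 and 4 lower (2.44, 2.09 and 1.45%). At pH 8.2 the counts were 5, 7 and 6 higher (3.2, 4.41 and 5.7%) and 2, 1 and 3 lower (2.5, 2.26 and 2.58%). On glucose they were 5, 8 and 7 higher (2.6, 3.14 and 2.46%) and 4, 2 and 3 lower (2.82, 2.68 and 2.21%). The genes nearest to the threshold were C4R279, PCL1, SMK1, CLB3 and ADR1, with largest changes of 1.03, -1.05, 1.06, 1.07 and 1.09, and just below it SFL1 with -0.94. In all, 84 calls of a member in a comparison were made, and 59 of them were kept whichever single library was left out.

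**Figure D1:**
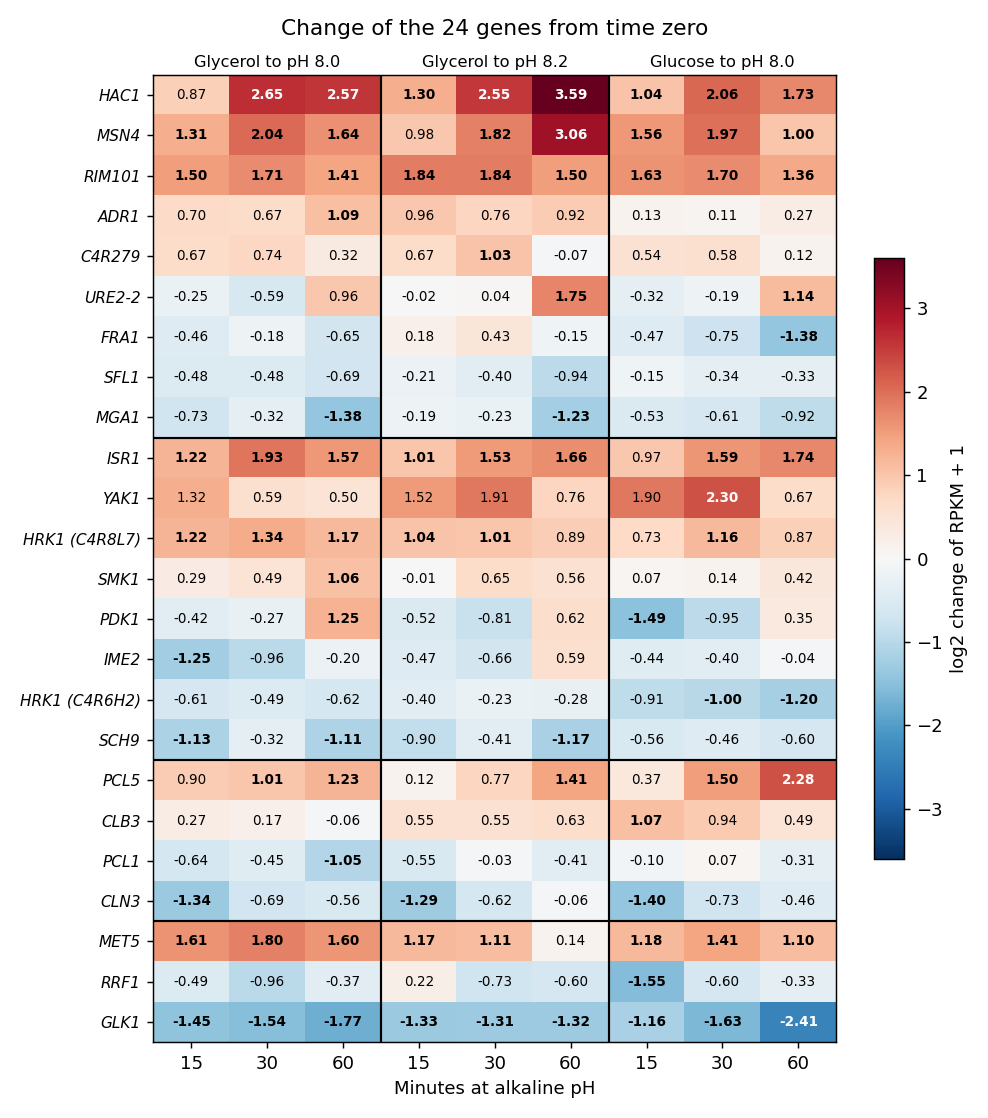
Log2 change of RPKM + 1 from time zero for each of the 24 genes (rows, in blocks of transcription regulators, kinases, cyclins and genes matched by wording only) at 15, 30 and 60 min of the 3 courses (columns). Red is higher and blue lower than time zero, and bold numbers were called; RIM101 is red and GLK1 blue in every column, while URE2-2 and PDK1 change sign with time.

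RIM101 (chromosome 3, 1185885 to 1187711, minus strand) encodes the pH-responsive repressor and rose in every course. In the glycerol course to pH 8.0 it read 65.5 and 62.5 RPKM at time zero, 173, 176, 187 and 195 at 15 min, 191 and 236 at 30 min and 150.1 and 197 at 60 min. Towards pH 8.2 the levels were 54.6 and 58.1, then 205 and 203, 189 and 221, and 151 and 171. On glucose they were 51.97 and 47.8, then 155 and 158, 162 and 166, and 130.1 and 129. No stressed library overlapped any library of time zero. The 9 changes lay between 1.36 and 1.84 (SE 0.10 to 0.11), or 2.57- to 3.58-fold, and the change at 15 min was at least 1.5. A search of the list's descriptions for words of the pH response found 1 other gene, DFG16 (C4R983). In other yeasts it encodes the membrane sensor of the pH pathway. DFG16 rose later: in glycerol at pH 8.0 it read 45.00 and 43.1 RPKM at time zero, 45.95, 46.2, 41.5 and 51.7 at 15 min and 92.7 and 108 at 60 min, a change of 1.17 (SE 0.14) at 60 min, and it was called in 2 comparisons.

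HAC1 (chromosome 1, 1268884 to 1269879, plus strand), the bZIP factor of the unfolded protein response, had the largest change of the 24. In glycerol at pH 8.0 it went from 26.6 and 32.3 RPKM to 42.8, 40.6, 72.8 and 68.7 at 15 min, 174 and 206 at 30 min and 197 and 163 at 60 min. At pH 8.2 it went from 25.6 and 27.4 to 84.02 and 52.6, 233 and 109.8, and 261 and 414. On glucose it started at 40.9 and 49.3 and read 102 and 84.6, 202 and 181, and 142 and 159.7. Stressed libraries were above those of their own time zero in every group, and the levels at 30 and 60 min did not overlap those of time zero in any course. The largest change was 3.59 (SE 0.31), or 12-fold, at pH 8.2 after 60 min, where replicate 1 alone gave 3.25. Its only uncalled change was 0.87 (SE 0.27), in glycerol at pH 8.0 after 15 min, where replicates 1 and 2 gave 0.49 and replicates 3 and 4 gave 1.24. The calls at 15 min also fell below 2-fold without 1 library, at pH 8.2 without replicate 1 of that group, and on glucose without replicate 1 of time zero or of 15 min. RPKM of the whole gene does not separate spliced from unspliced HAC1 mRNA.

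MSN4 (chromosome 2, 1372100 to 1373170, plus strand) is annotated as an activator related to Msn2, and its pattern of 9 changes was the one nearest to that of HAC1. In glycerol at pH 8.0 it read 20.5 and 22.1 RPKM at time zero and 55.1, 53.7, 48.8 and 59.8, 84.1 and 97.3, and 73.7 and 63.3 at the later times. The pH 8.2 values rose from 21.1 and 17.5 through 50.8 and 29.8 and through 84.8 and 58.7 to 116 and 243. On glucose it rose from 21.1 and 16.3 to 62.2 and 51.8, stood at 79.4 and 71.7, and read 40.7 and 35.95 at 60 min. Every stressed library was above every library of time zero. The peak was thus at 30 min in both courses to pH 8.0, and at 60 min at pH 8.2, where the change of 3.06 (SE 0.26) was 2.53 from replicate 1 alone. The glucose call at 60 min, 1 (SE 0.26), sat on the threshold and was lost without replicate 2 of time zero or replicate 1 of 60 min.

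**Figure D2:**
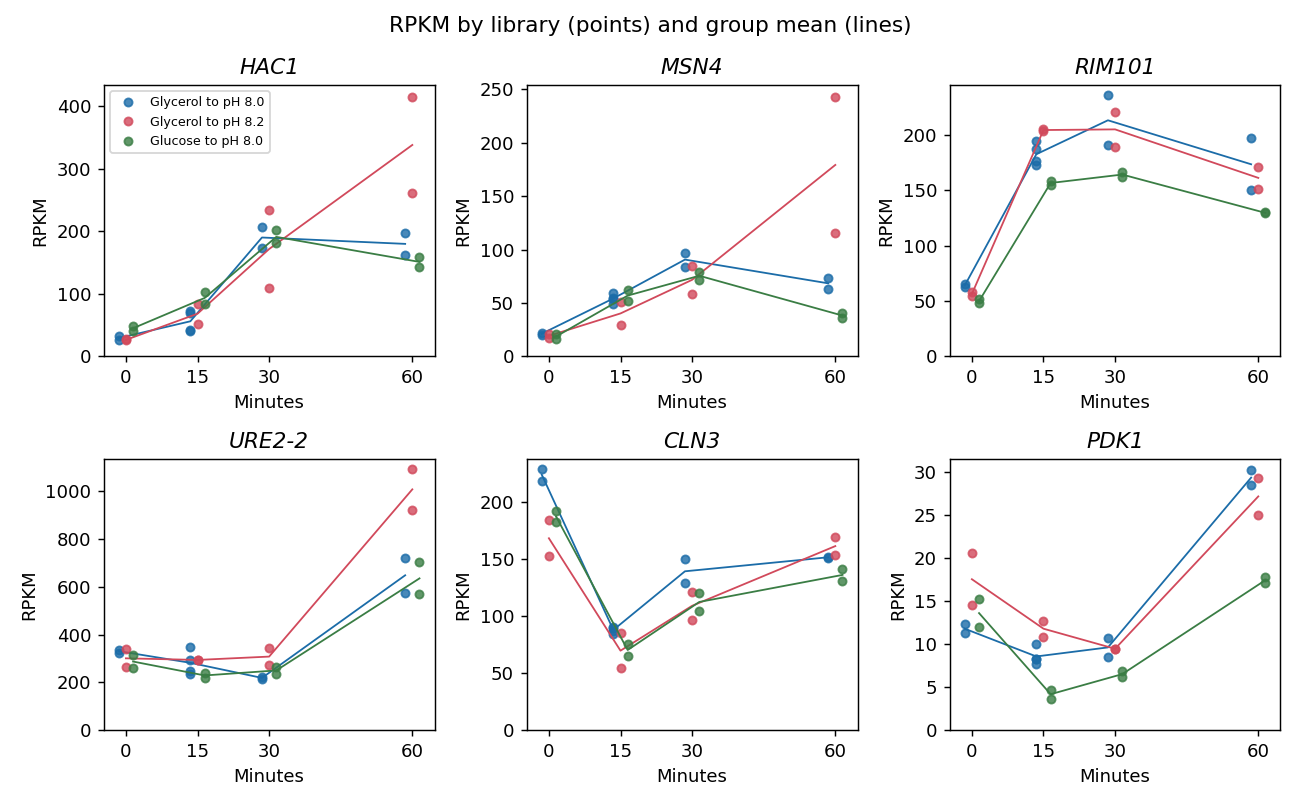
RPKM of HAC1, MSN4, RIM101, URE2-2, CLN3 and PDK1 in every library (points, shifted sideways by course) against minutes of stress, with lines through the group means, in the 3 courses. RIM101 is up by 15 min and stays up, HAC1 and MSN4 peak at 30 or 60 min, URE2-2 rises only at 60 min, and CLN3 and PDK1 are lowest at 15 or 30 min.

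URE2-2 (chromosome 2, 901082 to 901777, minus strand) is annotated as a regulator of nitrogen catabolite repression, and *S. cerevisiae* Ure2 holds the GATA factor Gln3 back in the cytoplasm. It was among the most abundant of the 24 at time zero, and its libraries read 324 and 337 RPKM there in the glycerol course to pH 8.0, 349, 296, 236 and 247 at 15 min, 223 and 215 at 30 min and 721 and 574 at 60 min. At pH 8.2 the 4 times gave 338 and 264, then 293 and 294, 272 and 344, and 923 and 1091. On glucose they gave 316 and 258, then 240.5 and 218, 266 and 234, and 568 and 702. In each course both libraries of 60 min were above all others, and up to 30 min the changes lay between -0.59 and 0.04. The changes at 60 min were 0.96 (SE 0.17) in glycerol at pH 8.0, 1.75 (SE 0.17) at pH 8.2 and 1.14 (SE 0.17) on glucose. The first was below 2-fold and not called, and the glucose call was lost without replicate 2 of time zero or of 60 min.

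The other regulators called higher moved less. ADR1, a zinc-finger factor that in *S. cerevisiae* is needed for growth on non-fermentable carbon, changed by 0.70, 0.67 and 1.09 at the 3 times in glycerol at pH 8.0, by 0.96, 0.76 and 0.92 at pH 8.2 and by 0.13, 0.11 and 0.27 on glucose, with SE of 0.14 to 0.16. Its single call, at 60 min in glycerol at pH 8.0, was lost without replicate 2 of that group, whose libraries read 33.2 and 50.2 RPKM against 19.5 and 17.8 at time zero. C4R279, a subunit of the NC2 complex, which in other eukaryotes binds the TATA-binding protein at promoters, was highest at 30 min in each course, and its changes at 60 min were 0.32, -0.07 and 0.12. Its largest change was 1.03 (SE 0.10), from 98.1 and 108 to 192 and 232 RPKM, and that call was lost without replicate 1 of time zero or replicate 2 of 30 min.

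Among the regulators called lower, MGA1, a gene whose *S. cerevisiae* namesake resembles heat shock factors, read 135 and 156 RPKM at time zero in the glycerol course to pH 8.0, 76.8, 69.2, 98.6 and 109 at 15 min, 105 and 128 at 30 min and 46.9 and 64.6 at 60 min. At pH 8.2 the values were 85.4 and 109.5, then 70.2 and 102, 57.4 and 117, and 33.7 and 48.8. On glucose they were 84.5 and 77.1, then 52.2 and 59.5, 52.3 and 52.95, and 42.95 and 41.1. In every course the libraries of 60 min were below those of time zero, and at 30 min the glycerol libraries came close to or overlapped them. The changes at 60 min were -1.38 (SE 0.27), -1.23 (SE 0.27) and -0.92 (SE 0.27). The last was not called, and the call at pH 8.2 was lost without replicate 1 of 60 min. SFL1, whose description as a repressor and activator is the same as that of MGA1, had negative changes in all 9 comparisons, from -0.94 to -0.15, and no call.

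FRA1, which in *S. cerevisiae* represses the iron regulon together with Fra2, started higher on glucose. It read 107 and 109 RPKM at time zero on glucose and 77.2 and 77.6, 64.5 and 62.4, and 45.9 and 36.3 at the later times. In the glycerol course to pH 8.0 it read 40.1 and 54.5, then 27.6, 27.3, 42.5 and 40.8, 41.00 and 41.4, and 29.9 and 29.02. At pH 8.2 it read 37.1 and 35.6, then 35.4 and 47.7, 38.4 and 63.1, and 27.6 and 38.3. At 60 min 1 of the glucose libraries lay within the range of the glycerol libraries of that time (27.6 to 38.3 RPKM) and the other above it. The glucose change at 60 min, -1.38 (SE 0.23), was its only call, and the 6 glycerol changes lay between -0.65 and 0.43.

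YAK1 (chromosome 3, 1704142 to 1706145, plus strand), a kinase described as part of a glucose-sensing system, differed more between replicates than any other member. On glucose its replicates stood together, with 15.1 and 14.2 RPKM at time zero, 63.3 and 51.7 at 15 min, 77.3 and 75.2 at 30 min and 22.7 and 25.1 at 60 min. In glycerol at pH 8.0 it read 19.6 and 16.7 at time zero, 108, 105, 18.7 and 21.3 in replicates 1 to 4 at 15 min, 26.03 and 29.5 at 30 min and 24.3 and 27.8 at 60 min. At pH 8.2 it read 14.6 and 14.6 at time zero, 18.8 and 100.2 at 15 min, 23.8 and 138 at 30 min and 23.4 and 27.6 at 60 min. The 6 libraries of time zero were thus all low, and at 15 min in both glycerol courses, and at 30 min at pH 8.2, some libraries of a group were near that level while others of the same group were far above it. The mean changes were 1.32 (SE 0.68) in glycerol at pH 8.0 after 15 min, 1.52 (SE 0.78) and 1.91 (SE 0.78) at pH 8.2 after 15 and 30 min, and 1.9 (SE 0.78) and 2.3 (SE 0.78) on glucose. From replicates 3 and 4 alone the first of these was 0.13, and from replicates 1 and 2 alone it was 2.5. With replicate 1 alone, the changes at pH 8.2 were 0.34 at 15 min and 0.67 at 30 min. The fit called a single comparison, glucose at 30 min, and that call was lost in 18 of the 26 fits that each left out 1 library; the fit shares 1 error per gene over all groups, so the split glycerol groups set the SE on glucose too.

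Other genes showed the same split, which was followed up after the values of YAK1 were seen. After 15 min in glycerol at pH 8.0, 25 of 5034 genes had a mean over 1 log2 unit higher in replicates 1 and 2 than in replicates 3 and 4, and 2 genes were lower by as much. YAK1 ranked number 3 of all genes by the size of this difference (2.36), and it was the 1 member past that size. Smaller differences were wider spread. The mean chi-square per gene was 5.21 between replicates 1 and 2 and 14.22 between 3 and 4, but 55.18 to 65.76 across these pairs. Among other members, HAC1, FRA1 and MGA1 were lower in replicates 1 and 2 without overlap, and URE2-2 and MET5 were higher. The mean of this group thus joins unlike libraries for more members than YAK1. The library codes in the sample titles run apart in the same way (a9 and a10 for replicates 1 and 2, a2 and a6 for replicates 3 and 4). Over the 26 libraries, the genes whose log2(RPKM + 1) ran most like that of YAK1 were ETR1, HYR1 and TRR2, each with a Pearson correlation of 0.96, given as a description of libraries that share these courses. HYR1 (C4R1Z9) and TRR2 (C4R2E7) carry the names of a peroxidase and a thioredoxin reductase of *S. cerevisiae*, and ETR1 that of a mitochondrial enoyl reductase. HYR1 read 1941, 1943, 489.7 and 490.0 RPKM in replicates 1 to 4 at 15 min in glycerol at pH 8.0, 481 and 1978 at pH 8.2 after 15 min and 681 and 2713 after 30 min. The libraries high in YAK1 were the same ones that were high in HYR1 and TRR2, 8 in all with the 4 glucose libraries of 15 and 30 min. The neighbouring gene PEX28 (C4R5U5), 136 bp away, read 42.7, 35.3, 17.4 and 18.1 in the 4 libraries of glycerol at pH 8.0 after 15 min. The closest member was C4R279, with a correlation of 0.63. The part of handling or library in this split was not tested.

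**Figure D3:**
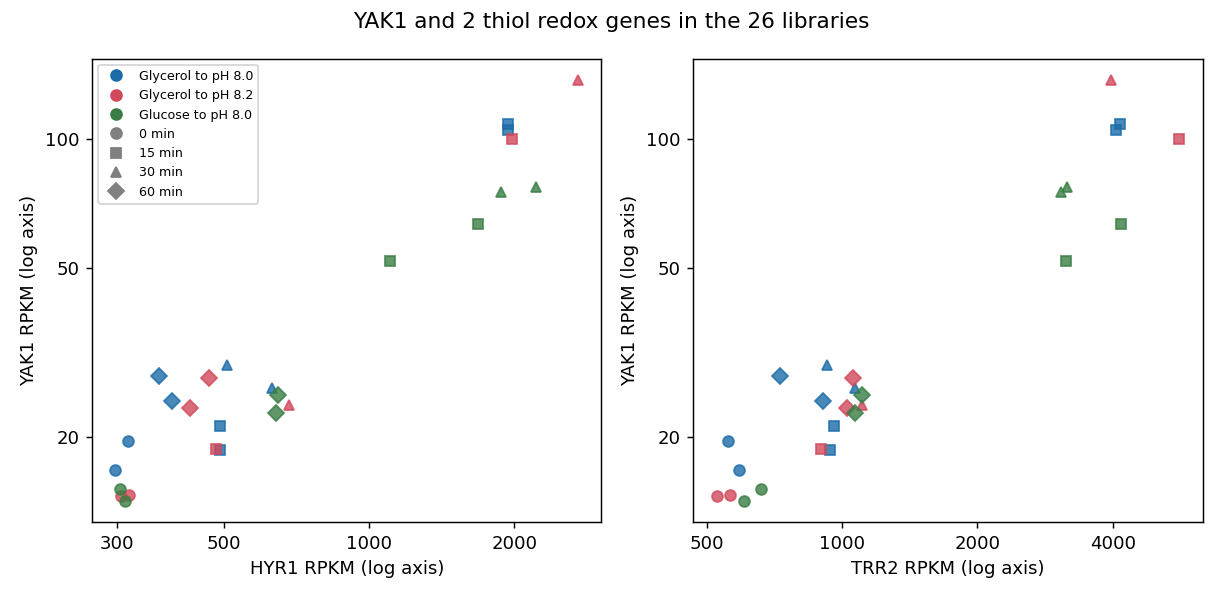
YAK1 RPKM against HYR1 RPKM (left) and TRR2 RPKM (right) in the 26 libraries, both axes on a log scale, with colours for the courses and shapes for the times. The libraries fall into a low set, which holds all 6 of time zero and all of 60 min, and a high set of 8 libraries of 15 and 30 min, and replicates of 1 group lie in both sets on glycerol.

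ISR1, a predicted kinase whose overexpression in *S. cerevisiae* causes sensitivity to staurosporine, was the most steadily raised kinase, and its pattern of 9 changes was nearest to that of RIM101. In glycerol at pH 8.0 it read 18.9 and 20.6 RPKM, then 41.6, 46.7, 58.7 and 43.7, 77.7 and 78.5, and 62.6 and 58.9. The course to pH 8.2 gave 23.4 and 21.2, then 49.5 and 42.8, 65.2 and 67.04, and 71.3 and 73.9. On glucose it read 14.3 and 18.9, then 29.2 and 37.6, 48.7 and 54.8, and 57.5 and 57.03. No stressed library overlapped time zero, and 8 of the 9 changes were called, up to 1.93 (SE 0.14). The exception was 0.97 (SE 0.14) on glucose at 15 min, and the call at pH 8.2 after 15 min was lost without replicate 2 of time zero or replicate 1 of 15 min.

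The kinases that both carry the name HRK1 moved in opposite directions. *S. cerevisiae* Hrk1 activates the plasma membrane proton pump Pma1, and the description of C4R6H2 says the same, whereas that of C4R8L7 speaks of stabilizing amino acid transporters. HRK1 (C4R8L7) had 9 positive changes, from 0.73 to 1.34, and 6 calls. Glycerol cultures at pH 8.0 went from 25.4 and 29.8 RPKM to 71.8 and 70.4 at 30 min. Its calls at pH 8.2 after 15 and 30 min, 1.04 (SE 0.09) and 1.01 (SE 0.09), were lost without replicate 1 of 15 or of 30 min, the latter also without replicate 2 of time zero. HRK1 (C4R6H2) had 9 negative changes, from -1.2 to -0.23, and was called lower on glucose at 30 and 60 min. There it fell from 88.6 and 94.9 RPKM to 45.6 and 44.8 and 40.04 and 38.8, to about the level of the stressed glycerol libraries, which read 42.0 to 56.8. The call at 30 min was lost without replicate 2 of time zero or of 30 min. The list's keywords for the proton pump and amino acid permeases found 2 further genes, and both were called lower: DIP5 reached -2.23 (SE 0.16) on glucose at 15 min and GAP1 -1.46 (SE 0.13) on glucose at 60 min.

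SCH9, a nutrient- and stress-linked kinase that in *S. cerevisiae* acts below the TORC1 complex, fell on glycerol. It read 92.5 and 94.5 RPKM at time zero of the glycerol course to pH 8.0, 38.98, 34.2, 55.9 and 42.4 at 15 min, 81.04 and 68.6 at 30 min and 43.01 and 42.3 at 60 min, so that the drop was smaller at 30 min than before or after. The changes there were -1.13, -0.32 and -1.11, at pH 8.2 -0.90, -0.41 and -1.17, and on glucose -0.56, -0.46 and -0.60. The calls were those at 15 and 60 min in glycerol at pH 8.0 and at 60 min at pH 8.2, and the last was lost without replicate 2 of time zero. From replicates 3 and 4 alone the first came to -0.93, below 2-fold, and from replicates 1 and 2 alone to -1.33. SCH9 and MGA1 were each the other's nearest pattern, at a distance of 0.95 over the 9 changes.

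PDK1, described as a mitochondrial kinase, went down and then up. On glucose it read 15.2 and 11.9 RPKM at time zero, 4.70 and 3.67 at 15 min, 6.82 and 6.19 at 30 min and 17.1 and 17.8 at 60 min. Glycerol cultures moved to pH 8.0 gave 11.2 and 12.3, then 8.31, 9.96, 8.32 and 7.64, 8.53 and 10.7, and 28.4 and 30.2. In the pH 8.2 course the values were 14.5 and 20.6, then 10.9 and 12.7, 9.45 and 9.45, and 29.2 and 25.02. In all 3 courses both libraries of 60 min were above every other library of the course. It was called lower on glucose at 15 min, -1.49 (SE 0.16), and higher in glycerol at pH 8.0 after 60 min, 1.25 (SE 0.16).

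The meiotic kinases were near the floor of expression. IME2, described as involved in the activation of meiosis, read 2.24 and 2.45 RPKM at time zero of the glycerol course to pH 8.0, 0.40, 0.28, 0.49 and 0.48 at 15 min, 0.85 and 0.61 at 30 min and 1.92 and 1.93 at 60 min. At pH 8.2 it read 1.12 and 1, then 0.44 and 0.53, 0.29 and 0.31, and 1.81 and 2.42. Glucose cultures gave 1.49 and 1.2, then 0.72 and 0.73, 0.61 and 0.95, and 1.03 and 1.55. The drop by 15 min in the first course was called (-1.25 (SE 0.16)), and time zero was itself lower in the other glycerol course. SMK1, the sporulation-specific MAP kinase, stayed between 1.09 and 4.00 RPKM in every library, and its call of 1.06 (SE 0.17) in glycerol at pH 8.0 after 60 min was lost without replicate 2 of time zero. The meiosis and sporulation keywords found 7 listed genes, these 2 included, of which 4 were called higher and 3 lower. SSP2 (C4R6H1), whose *S. cerevisiae* product activates Smk1, was called lower once, -1.08 (SE 0.13) on glucose at 15 min, from 51.6 and 52.9 to 22.8 and 25.7 RPKM. C4QXP0, described as a meiosis-specific protein that starts recombination, was called higher at 60 min on glycerol, by 1.46 (SE 0.21) at pH 8.0 and 1.45 (SE 0.21) at pH 8.2. ATO2 and SGA1 reached 1.78 (SE 0.18) and 1.68 (SE 0.19), and LYP1 -1.18 (SE 0.24). The descriptions call both ATO2 and LYP1 acetate transporters required for normal sporulation, and SGA1 a sporulation-specific glucoamylase. In *S. cerevisiae* the names ATO2 and LYP1 stand for ammonium export and lysine uptake, so name and description differ for LYP1.

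The cyclins took separate courses. CLN3 (chromosome 1, 1512257 to 1513333, minus strand), the G1 cyclin, was lowest at 15 min everywhere. With glycerol and pH 8.0 it fell from 229 and 219 RPKM to 87.3, 89.5, 90.5 and 84.2 and read 129 and 149.6 at 30 min and 151 and 152 at 60 min. The pH 8.2 values fell from 184 and 153 to 85.1 and 54.4 and read 121 and 96.9 and then 169 and 154. On glucose it fell from 192 and 182 to 75.4 and 65.2 and read 120.0 and 105 and then 142 and 131. The groups of 15 min and time zero did not overlap in any course, and at 60 min the libraries at pH 8.2 overlapped their time zero. The changes at 15 min were -1.34 (SE 0.13), -1.29 (SE 0.15) and -1.4 (SE 0.15), all called, and that at pH 8.2 was -0.97 without its replicate 2.

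PCL5, a Pho85 cyclin that in *S. cerevisiae* takes part in the breakdown of the amino acid control factor Gcn4 and is itself induced by Gcn4, had its highest mean at 60 min in each course. On glucose it read 64.7 and 61.1 RPKM at time zero, 84.3 and 78.9 at 15 min, 186 and 174 at 30 min and 361 and 266 at 60 min. The glycerol course to pH 8.0 gave 46.3 and 40.2, then 80.01, 86.8, 78.2 and 81.8, 91.8 and 84.5, and 112 and 93.8. The course to pH 8.2 gave 64.4 and 73.5, then 80.3 and 69.6, 94.2 and 148, and 128 and 265. The libraries of 60 min were above those of time zero in each course, and at 15 min at pH 8.2 they overlapped them. In glycerol at pH 8.0 the change was already 0.90 (SE 0.20) at 15 min, against 0.12 at pH 8.2 and 0.37 on glucose. The changes at 60 min were 1.23 (SE 0.23), 1.41 (SE 0.23) and 2.28 (SE 0.23). The call at pH 8.2 fell to 0.89 without replicate 2, and the call in glycerol at pH 8.0 after 30 min, 1.01 (SE 0.23), was lost without replicate 2 of time zero or replicate 1 of 30 min.

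PCL1, the other member described as a Pho85 cyclin and in *S. cerevisiae* active in G1, stood at 291 and 269.8 RPKM at time zero of the glycerol course to pH 8.0. It read 139 and 131 there at 60 min. That change, -1.05 (SE 0.15), was called and came to -1 without replicate 1 of time zero, where the call was lost. All other changes of PCL1 lay between -0.64 and 0.07. CLB3, a B-type cyclin that in *S. cerevisiae* acts in spindle formation, had its single call on glucose at 15 min, where it went from 26.7 and 22.1 to 52.7 and 51.5 RPKM (1.07 (SE 0.14)), and lost it without replicate 2 of time zero. On glycerol CLB3 changed by 0.27, 0.17 and -0.06 at pH 8.0 and by 0.55, 0.55 and 0.63 at pH 8.2, where its stressed libraries (35.7 to 54.95 RPKM) were all above time zero (29.5 and 27.2).

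The gene named GLK1 (C4R8F9), called after the glucokinase of *S. cerevisiae*, was the most abundant of the 24 at time zero and had the largest fall. On glucose it went from 1463 and 1919 RPKM to 722 and 781, 530.0 and 552, and 326 and 303. Glycerol cultures at pH 8.0 went from 742 and 875 to 282, 289, 333 and 278, 273 and 282, and 245 and 227. Those at pH 8.2 went from 606 and 727 to 269 and 258, 249 and 286, and 264 and 268. Within a course no stressed library overlapped time zero, and the change on glucose at 60 min was -2.41 (SE 0.12). The call on glucose at 15 min, -1.16 (SE 0.12), was lost without replicate 2 of time zero.

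MET5, of the sulfite reductase, read 37.7 and 53.1 RPKM at time zero of the glycerol course to pH 8.0, then 174, 181, 93.05 and 126, 136 and 185, and 117 and 161. In the pH 8.2 course the values were 40.9 and 56.6, then 99.5 and 120.1, 115 and 95.9, and 95.1 and 29.6. On glucose it read 53.6 and 43.05, then 123 and 98.3, 129 and 131, and 106 and 102. Stressed libraries were above time zero in all groups but pH 8.2 after 60 min, where replicate 2 was below. That group's change was 0.14 (SE 0.37), and 0.97 from replicate 1 alone. The other 8 changes were called, from 1.1 to 1.8, and the 5 calls at pH 8.2 and on glucose were each lost without 1 library (replicate 1 of time zero at pH 8.2 and replicate 2 of time zero on glucose, among others), while the 3 in glycerol at pH 8.0 were kept.

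RRF1, which in *S. cerevisiae* helps mitochondrial ribosomes leave the mRNA, fell on glucose from 118 and 116 RPKM to 38.9 and 39.8 at 15 min and then read 75.3 and 79.3 and 90.7 and 95.8. In glycerol at pH 8.0 it read 79.6 and 81.7, then 60.7, 50.8, 60.5 and 57.96, 39.2 and 42.98, and 61.5 and 63.1. At pH 8.2 it read 94.5 and 89.4, then 83.1 and 138, 41.97 and 71.9, and 69.8 and 52.1. The glucose change at 15 min, -1.55 (SE 0.20), was its single call, and the replicates at pH 8.2 were apart at 15 and 30 min.

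The comparisons from here on are built from the libraries, and most from the very changes, that put the genes on the list, so they too are a description of chosen genes, are given with no p, and the share of all genes beside a count carries no reading. A gene called here passed an adjusted limma p below 0.05 over all 5034 genes. Before stress, 4 members were higher on glucose than on glycerol (16.7%, against 9.44% of all genes) and 3 were lower (12.5%, against 12.5%). FRA1 was higher by 1.36 (SE 0.20), with both glucose libraries (107 and 109 RPKM) above the 4 glycerol libraries (35.6 to 54.5). GLK1 was higher by 1.19 (SE 0.10), and again the groups did not overlap (1463 and 1919 against 606 to 875 RPKM). HRK1 (C4R6H2) was higher by 0.53 (SE 0.10). These 3 calls were kept whichever library was left out. SMK1 was higher by 0.51 (SE 0.15), and the call was lost without either glucose library, replicate 2 of the glycerol course to pH 8.0 or replicate 1 of that to pH 8.2. The lower genes were PCL1 by -0.51 (SE 0.13), CLB3 by -0.42 (SE 0.12) and SFL1 by -0.29 (SE 0.10). Without glucose replicate 2 none of these 3 was called. CLB3 was also lost without replicate 1 of the glycerol course to pH 8.0, and SFL1 without glucose replicate 1 or replicate 1 of either glycerol course. HAC1 differed by 0.67 (SE 0.27) and did not pass. Of the 7 members, 3 were kept without glucose replicate 2, and ISR1 was gained.

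**Figure D4:**
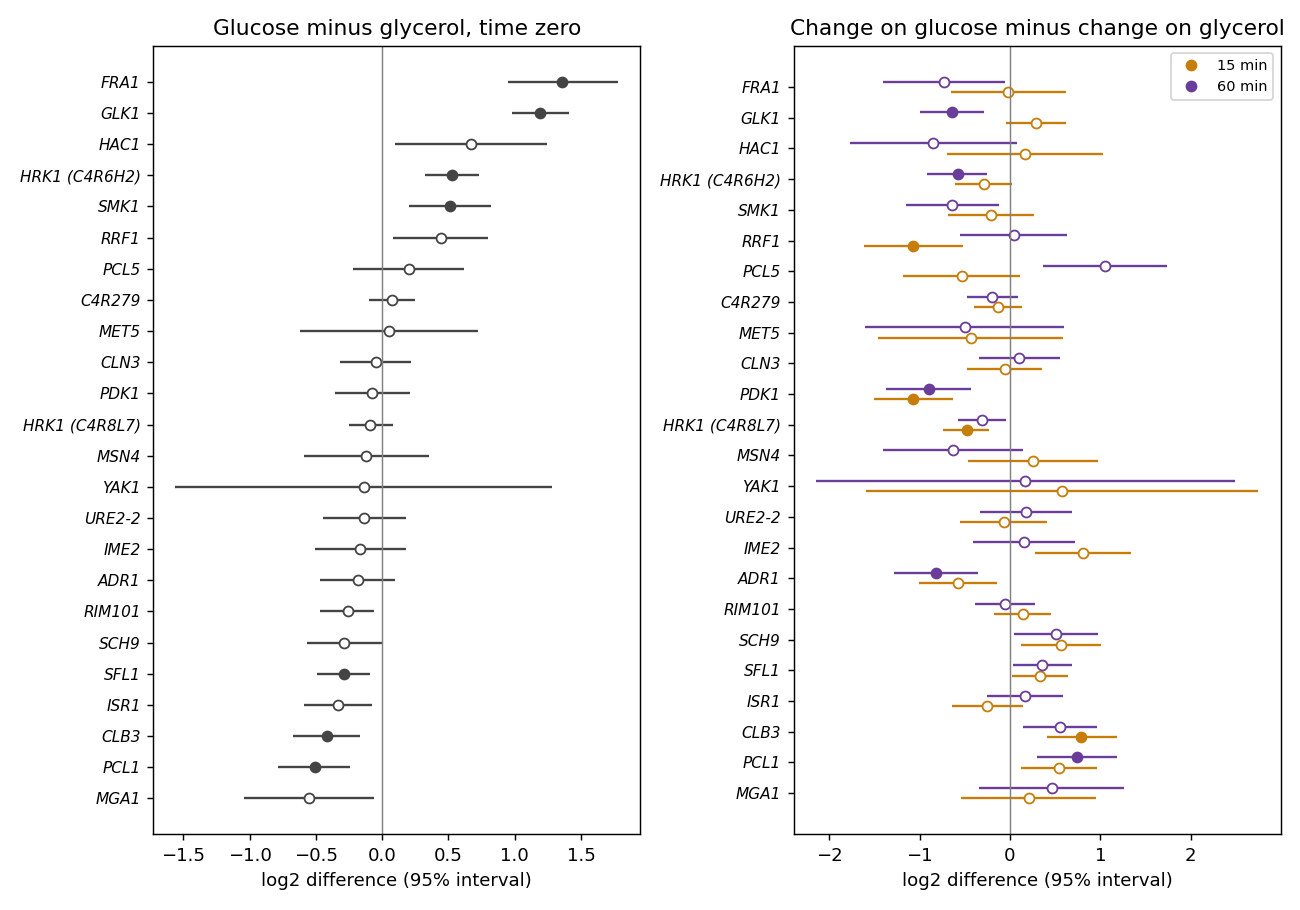
Left, log2 difference of RPKM + 1 between glucose and glycerol at time zero for each gene; right, the difference between the change on glucose and the change on glycerol, both at pH 8.0, at 15 min (orange) and 60 min (purple). Bars are 95% intervals of the fit and filled points were called, with no independent test; FRA1 and GLK1 stand out at time zero, and PDK1 is filled at both times of the right panel.

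Between 15 and 60 min of stress the members did not move as a block. On glycerol at pH 8.0, 8 members were higher at 60 min (33.3%, against 40% of all genes) and 5 lower (20.8%, against 20.9%). At pH 8.2 there were 9 (37.5%, against 43.8%) and 6 (25%, against 21.1%), and on glucose 6 (25%, against 32.8%) and 5 (20.8%, against 11.3%). The median gene rose by 0.11, 0.18 and 0.13 in the 3 courses, so small positive differences lie close to the bulk of the genes. The genes higher at 60 min in every course were URE2-2, PDK1, CLN3 and ISR1. URE2-2 differed by 1.21 (SE 0.15) in glycerol at pH 8.0, 1.77 (SE 0.17) at pH 8.2 and 1.46 (SE 0.17) on glucose. PDK1 differed by 1.67 (SE 0.14), 1.14 (SE 0.16) and 1.84 (SE 0.16) in the same order. CLN3 came back by 0.78 (SE 0.13), 1.23 (SE 0.15) and 0.95 (SE 0.15). These 9 calls were kept whichever library was left out. ISR1 differed by 0.36, 0.65 and 0.77, and the first was lost without replicate 1 of 15 min or either library of 60 min, and under median-ratio scaling. C4R279 was the 1 gene lower in every course, by -0.35, -0.74 and -0.42, and the first was lost without replicate 1 of 60 min.

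**Figure D5:**
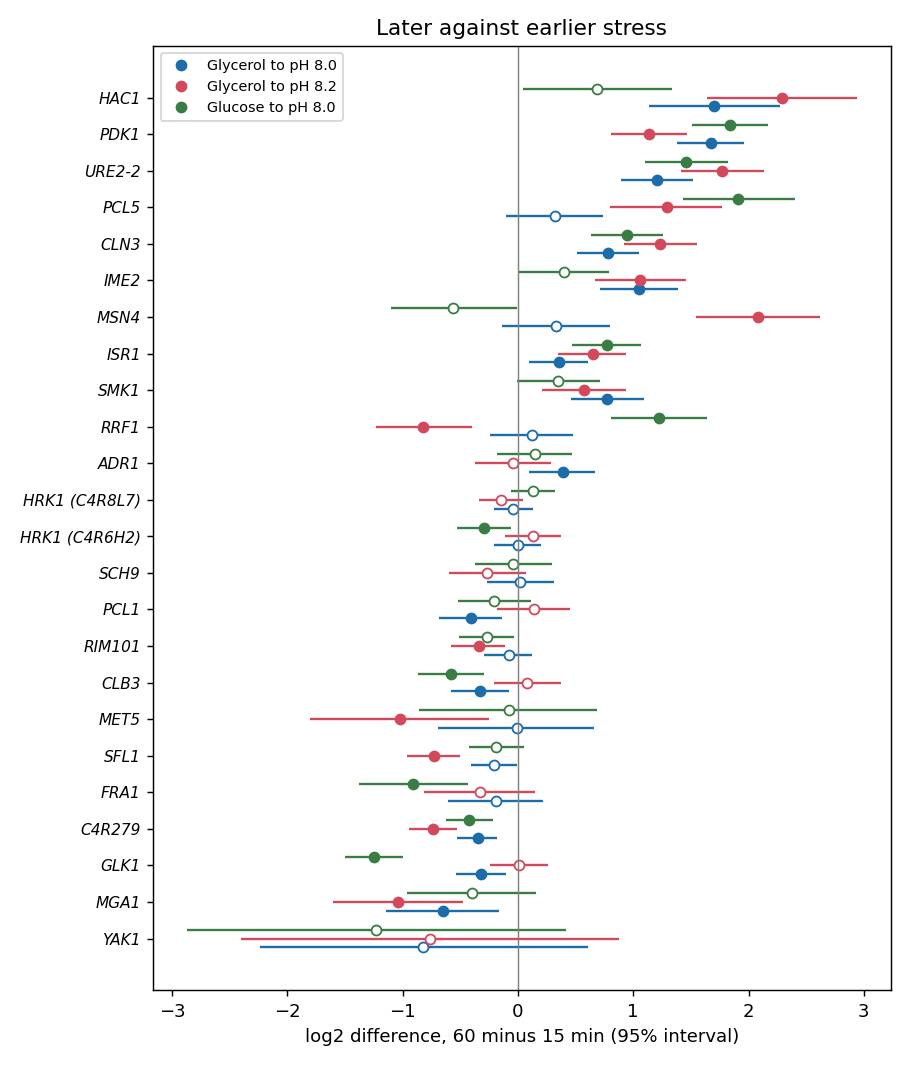
Log2 difference of RPKM + 1 between 60 and 15 min for each gene in the 3 courses (colours), with 95% intervals and filled points for an adjusted p below 0.05. PDK1, URE2-2, CLN3 and ISR1 are to the right of 0 in all courses, C4R279 to the left, and the wide bars of YAK1 come from its split replicates.

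Other members differed between 15 and 60 min in some courses. HAC1 was higher at 60 min by 1.7 (SE 0.27) in glycerol at pH 8.0 and by 2.29 (SE 0.31) at pH 8.2, and the difference on glucose was 0.69 (SE 0.31). MSN4 was higher at pH 8.2 by 2.08 (SE 0.26), with differences of 0.33 and -0.56 in the other courses that did not pass. PCL5 was higher at pH 8.2 by 1.29 (SE 0.23), or 0.77 without replicate 2 of 60 min, and on glucose by 1.91 (SE 0.23). IME2 rose back by 1.05 (SE 0.16) and 1.06 (SE 0.19) on glycerol. Lower at 60 min were GLK1 on glucose, by -1.25 (SE 0.12), and MGA1 at pH 8.2, by -1.04 (SE 0.27). RRF1 was higher on glucose, by 1.22 (SE 0.20), and its difference at pH 8.2 was -0.82 (SE 0.20). The latter was lost without replicate 2 of 15 min. MET5 was lower at pH 8.2 by -1.02 (SE 0.37), and the difference was -0.20 without replicate 2 of 60 min. YAK1 had lower means at 60 min, with intervals from -2.24 to 0.61, -2.4 to 0.88 and -2.87 to 0.42, and did not pass in any course. The libraries on glucose did not overlap, and YAK1 was called there in the fit of the compared groups alone, and in glycerol at pH 8.0 with a replicate block or with replicates 1 and 2 alone at 15 min.

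The change on glucose was set against that on glycerol, both at pH 8.0 and at the same time. CLB3 and RRF1 had their only call from time zero on glucose at 15 min, and PCL1 and ADR1 in glycerol at pH 8.0 after 60 min, so the difference at that time contains the change that was called. The same holds for PDK1 at both times, since its only calls were in these same groups. The differences called below for GLK1 and the HRK1 genes also contain a called change. The glucose libraries carry codes of another series (S) than the glycerol libraries of this pH (a), so carbon source and library set cannot be told apart beyond what time zero takes out. At 15 min the change on glucose was above that on glycerol for 1 member (4.17%, against 2.09% of all genes). It was below that on glycerol for 3 members (12.5%, against 3.91%). Of these, HRK1 (C4R8L7) rose on both carbon sources, but less on glucose. There it went from 27.05 and 26.2 to 46.7 and 43.3 RPKM, while its glycerol change was 1.22. PDK1 differed by -1.07 (SE 0.21). Its changes were -1.49 on glucose and -0.42 on glycerol, and this call was kept whichever library was left out. CLB3 differed by 0.79 (SE 0.18), RRF1 by -1.07 (SE 0.26) and HRK1 (C4R8L7) by -0.48 (SE 0.12). All 3 were lost, and the count came down from 4 to 1, without replicate 1 of glycerol at time zero or replicate 2 of glucose at time zero or 15 min. CLB3 and RRF1 were also lost without replicate 1 of glucose at 15 min, RRF1 and HRK1 without replicate 1 of glucose at time zero, and RRF1 without replicate 2 of glycerol at time zero.

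At 30 min no member passed, with 5 of the 24 at an unadjusted limma p below 0.05 (12.1% of all genes), and 0.219% and 1.07% of all genes called in the 2 directions. CLB3 came nearest, with 0.77 (SE 0.19). At 60 min the difference was positive for PCL1, 0.74 (SE 0.21) (1 member, 4.17%, against 2.86%). Its changes were negative on both carbon sources, and the one on glucose was smaller and not called. The difference was negative for HRK1 (C4R6H2), -0.58 (SE 0.16), ADR1, -0.82 (SE 0.22), GLK1, -0.64 (SE 0.17), and PDK1, -0.90 (SE 0.22) (4 members, 16.7%, against 3.04%). Of these, ADR1 and PDK1 had positive changes on both carbon sources, and those on glucose were smaller and not called. PDK1 was thus the 1 member called at both times. All 5 calls at 60 min were lost without replicate 1 of glycerol at time zero, replicate 2 of glycerol at 60 min, or either glucose library of 60 min. RIM101 did not pass at any time, and its intervals of the difference were -0.18 to 0.45, -0.35 to 0.32 and -0.39 to 0.28.

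Between pH 8.2 and pH 8.0 on glycerol, no member's change differed at an adjusted limma p below 0.05, at 15, 30 or 60 min, and neither did that of any other gene (0% of all genes). At an unadjusted p below 0.05 there were 4, 4 and 13 of the 24 members, against 11.7, 7.37 and 14.1% of all genes. At 60 min the difference for MSN4 was 1.42 (SE 0.37), with an interval of 0.65 to 2.19. For URE2-2 it was 0.79 (SE 0.24) and for CLB3 0.69 (SE 0.19), and for MET5 -1.45 (SE 0.52). Without replicate 1 at pH 8.2 after 60 min, which leaves that group to replicate 2, 4 members passed (CLB3, PCL1, MSN4 and MET5). With all 4 glycerol libraries of time zero as the shared start, 2, 1 and 6 members passed, at 60 min PCL5, PCL1, URE2-2, MSN4, SFL1 and MET5. The libraries at pH 8.2 carry S codes and those at pH 8.0 a codes, and a shared start does not take out a difference between these sets, so pH and library set cannot be told apart in those calls. The intervals for RIM101 were 0.03 to 0.66, -0.21 to 0.46 and -0.25 to 0.42.

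The remaining keyword lists held few of the study's genes. The unfolded protein keywords found HAC1 alone, and the Pho85 keyword PCL5 and PCL1 alone. These are matches of words in the descriptions and can miss genes of a pathway. PHO80, which is on the study's list, was not found by the Pho85 keyword. Of calcineurin, the phosphatase that carries calcium signals, the regulatory subunit CNB1 (C4R158) was found, and its changes lay between -0.88 and -0.48 with no call. Of the protein phosphatases, PTP1 was called higher, up to 1.16 (SE 0.21) at pH 8.2 after 30 min, and PTP2 lower, -1.72 (SE 0.20) on glucose at 60 min.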

How the data were processed

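RNA from 26 libraries of *K. phaffii* X-33 was sequenced, and per the study's methods the authors mapped the reads with Bowtie2 to the GS115 assembly and counted them over mRNA features in SeqMonk v1.48.0. The deposited table holds RPKM, which the authors computed per library. A second table gave names and descriptions; its fold changes and p-values were not used. Whole reads were recovered for at least 99.94% of values to within 0.01 read. This gives the read totals behind the RPKM (16.3 to 20.4 M reads, 92.4 to 93.9% in genes). The study reports a higher average number of reads per sample, and the difference was not examined. Replicates differed beyond counting error (mean chi-square per gene 5.21 to 109.73).

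limma 3.58.1 in R 4.3.3 fitted log2(RPKM + 1) with 12 group means to all libraries (residual degrees of freedom 14, empirical Bayes with trend), and Benjamini-Hochberg adjustment ran within a comparison over the 5034 of 5040 genes with at least 1 RPKM in at least 2 libraries. No count model was run. Each stressed group was set against time zero of its own course, 60 against 15 min within a course, glucose against all 4 glycerol libraries at time zero, and changes against each other; since all of these use the libraries that chose the genes, no p is given. Libraries were taken as independent, although the stressed aliquots were sampled repeatedly. The script was tested on simulated data.

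The genes and keyword lists were chosen with earlier results of these data known. All 24 genes are named, with every library for those that differed by at least 1 log2 unit in a tested comparison or were among the 8 largest changes. Likeness between members is the Euclidean distance of their 9 changes. Alternatives were a pseudocount of 0.1, no filter, a mean of at least 5 RPKM, median-ratio scaling, a shared time zero, a replicate block, no trend, fits of the compared groups alone, and each library left out; after the data were seen, fits without the split replicates were added. Positions are those of assembly ASM2700v1, which match all 24 gene models. Promoter and protein sequences were not analysed here.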

Additional observations from a re-analysis of the deposited data

Results flagged for a closer look

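The change on glucose differed from the change on glycerol, both at pH 8.0, for 4 genes at 15 min and 5 at 60 min, by the fitted difference of the 2 changes on the log2 scale (limma, adjusted p below 0.05). At 15 min the differences were 0.79 for CLB3, -1.07 for RRF1, -0.48 for HRK1 (C4R8L7) and -1.07 for PDK1. At 60 min they were 0.74 for PCL1, -0.58 for HRK1 (C4R6H2), -0.82 for ADR1, -0.64 for GLK1 and -0.90 for PDK1. Of the 9, the difference of PDK1 at 15 min was kept in all 26 fits that left out a library. Each difference contains changes from time zero that put these genes on the study's list, so the threshold passed is no independent test and the values are a description. Carbon source and library set cannot be told apart in these differences.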

How the results depend on the processing

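The 23 members called at least once from time zero were 21 to 23 when single libraries were left out. The 7 members that differed by carbon source at time zero were 4 to 10 without single libraries, 11 in the fit with a replicate block, 12 in the fit of the compared groups alone and 11 with replicate 1 alone in the stressed groups at pH 8.2, the last chosen after the data were seen. Between 60 and 15 min on glucose, 11 members became 17 with the compared groups alone and 9 to 12 without single libraries. The ranges without single libraries were 9 to 14 for glycerol at pH 8.0 (main 13) and 14 to 17 for pH 8.2 (main 15). For the change on glucose against glycerol at 15 min, 4 members became 7 with the compared groups alone and 1 to 5 without single libraries. At 30 min, 0 became 1 under median-ratio scaling (CLB3), 1 with all 4 glycerol libraries of time zero, 3 with the compared groups alone, 2 with replicate 1 alone at pH 8.2 and 0 to 1 without single libraries. At 60 min, 5 became 11 with the compared groups alone, 3 when glycerol at 15 min rested on replicates 3 and 4, 8 with replicate 1 alone at pH 8.2, and 0 to 7 without single libraries. For pH 8.2 against 8.0, the shared time zero gave 2, 1 and 6 members in place of 0, and single libraries gave 0 to 1, 0 to 0 and 0 to 4. The difference of C4R279 there at 15 min was 0.00 in the main fit and 0.31 with the shared time zero. The cause of these shifts was not tested. Replicate numbers were not shown to pair the samples: deviations correlated between -0.04 and 0.70 over pairs of groups, and a course has 2 numbers in most groups. All correlations at pH 8.2 (0.07 to 0.70) and on glucose were positive, and there the library codes run each replicate through the times in sequence. The block gives replicates 3 and 4 terms of their own. It fits the same effect for a replicate number in every course, so it neither tests nor adjusts for pairing within a course. In glycerol at pH 8.0 the library codes put replicates 3 and 4 of 15 min, not 1 and 2, in sequence with the other times. The block and the correlations with that group (-0.04, 0.08 and 0.01) followed the replicate numbers. They therefore cannot decide whether the samples of that course pair. The 6 correlations on glucose were 0.11 to 0.35, over 2 numbers. Between 60 and 15 min in glycerol at pH 8.0 the block kept 9 of 13 members, lost CLB3, PCL1, MGA1 and ADR1 and gained YAK1. The 15 min mean in that fit rests on replicates 1 and 2, which were high in YAK1. Elsewhere the block lost PCL1 in the change on glucose against glycerol at 60 min. Median-ratio scaling shifted the median of all genes by up to -0.19, in the difference of 60 and 15 min at pH 8.2. Depth limits IME2 and SMK1.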
